A study of Mus musculus with 18 samples.

Results

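The 9 libraries of the wild-type mouse strains CC, FF and HH, out of 18 liver small RNA libraries, were compared for the fragments they held of mt-TR, the mitochondrial tRNA for arginine. They were chosen by their column names, with earlier results of these data known, and held 104654 of the 121943 reads deposited for all 18 libraries (85.8%). The first letter of a strain code stands for the nuclear genome and the other for the mitochondrial DNA (mtDNA). C is C57BL/6J, F is FVB/NJ and H is C3H/HeN. Each strain gave 3 libraries from the liver of healthy adult female mice. In these strains the nuclear genome and the mtDNA come from the same strain, so a difference between strains cannot be told apart as nuclear or mitochondrial. All RNA had been pooled and then treated to remove methyl groups on bases, bound amino acids and blocked ends. The number of animals behind a library was not given in the sources used here, so the tests below measure the spread between libraries, which may be technical. The other 9 libraries came from mitochondrial-nuclear exchange (MNX) strains.

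A tRNA folds into an acceptor stem, which carries the amino acid at its 3′ end, and into arms named for the D-loop, the anticodon and the T-loop. The last 3 bases, CCA, are not encoded in mtDNA and are added by an enzyme after processing. Nucleases that cut in a loop release tRNA-derived fragments (tRF). A cut in the middle of the molecule leaves a 5′ fragment that begins at the first base (nt 1) and a 3′ fragment that keeps the CCA.

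Mature mt-TR is 71 nt long in CC, 72 nt in FF and 73 nt in HH. The sequences are shown because the 3 strains differ only in the run of T (U in the RNA) and the run of A between the acceptor stem and the anticodon stem, which are in capitals.
CC mature: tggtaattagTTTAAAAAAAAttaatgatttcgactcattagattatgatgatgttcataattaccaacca
FF mature: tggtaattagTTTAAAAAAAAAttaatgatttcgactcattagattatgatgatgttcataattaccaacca
HH mature: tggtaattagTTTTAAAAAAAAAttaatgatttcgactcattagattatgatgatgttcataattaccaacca
FF has 1 more A than CC, and HH has 1 more T and 1 more A. mt-TR is encoded by mt-Tr (ENSMUSG00000064361.1), whose only exon spans 68 nt, chrM:9808-9875 of mm10 on the plus strand. Positions are counted from nt 1 of each strain's own mature sequence, and ends by their distance from its CCA end, which is the same in all strains beyond the runs.

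The predominant fragment runs from nt 1 to a base 19 nt before the mature end, called the site, inside the T loop.
CC predominant: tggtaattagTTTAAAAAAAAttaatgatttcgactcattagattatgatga
FF predominant: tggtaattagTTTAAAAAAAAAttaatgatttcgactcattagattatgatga
HH predominant: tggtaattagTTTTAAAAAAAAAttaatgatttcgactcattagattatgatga
In CC it covers positions 9808 to 9859 of chromosome M. The next most abundant fragment in the mean of each strain shares its start at nt 1 but stops 28 nt short of the CCA end, in the variable region between the anticodon and T stems, at position 9850. In 16 bases around each end, shared by the 3 strains, the last base of the fragment and the base after it are in capitals.
CC around the site: tatgatgATgttcata
CC around the second end: tcattagATtatgatg
Both ends lie between A and T.

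Depth was 15335 to 23805 reads per library in CC, 6548 to 14476 in FF and 3578 to 6596 in HH. All reads were 40 to 69 nt long. Full-length mt-TR and shorter fragments are absent from the deposited counts, and each share below is a percent of the reads of this length class in a library. The limit that a count of 0 allows, 3 reads, was 0.0126% to 0.0838% of a library. Intervals are Wilson intervals at 95% and, like these limits, cover error from counting only. The table holds mt-TR alone, so the tissue could not be checked against markers of liver cells. In bulk tissue, fewer cells of a type and less RNA per cell cannot be told apart. Depth moved with strain. All HH libraries were shallower than all CC libraries, and the part of depth in their differences was not tested. Depth here counts only mt-TR reads of this length class. At close to equal depth, HH replicate 2 with 6596 reads and FF replicate 3 with 6548 had 27.0% and 6.48% of CCA-ended reads. Within strains, the predominant fragment was 26.6%, 33.2% and 43.0% in CC libraries of 15335, 17436 and 23805 reads. It was 42.7%, 49.3% and 49.9% in FF libraries of 6548, 12647 and 14476 reads. In HH libraries of 3578, 4233 and 6596 reads it was 6.65%, 1.04% and 22.5%. None of this was tested.

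The first question was which fragments make up the mt-TR reads of each strain. CC and FF libraries consisted mainly of 5′ fragments, and HH libraries held many 3′ fragments that keep the CCA. The predominant fragment made up 26.6%, 33.2% and 43.0% of reads in CC replicates 1, 2 and 3. In FF it made up 49.9%, 49.3% and 42.7%. In HH the shares were 1.04%, 22.5% and 6.65%. All HH libraries lay below all CC and FF libraries, while CC and FF overlapped. Strain means were 34.3% ± 8.23, 47.3% ± 4.02 and 10.1% ± 11.1 in CC, FF and HH (SD, n = 3), and they differed by more than the spread between libraries (two-sided exact permutation test over 1680 arrangements, p = 0.00714, adjusted p = 0.0238 over 10 measures). The interval was 0.775% to 1.39% in HH replicate 1 and 21.5% to 23.5% in HH replicate 2, so the HH libraries differed by far more than counting error.

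Reads with the mature CCA end showed the opposite order. They made up 10.6%, 11.1% and 2.31% of reads in CC, and 2.998%, 5.38% and 6.48% in FF. In HH they made up 74.3%, 27.0% and 55.7%. The lowest HH library, replicate 2, was above every CC and FF library, and the strain means were 7.99% ± 4.92, 4.95% ± 1.78 and 52.3% ± 23.8 in CC, FF and HH (exact permutation test, n = 3, p = 0.0143, adjusted p = 0.0286). Reads that begin at nt 1 were 56.7%, 66.7% and 86.2% in CC, 83.8%, 81.5% and 75.9% in FF and 13.1%, 45.0% and 27.1% in HH. Their mean was lowest in HH, falling from 69.9% ± 15.03 in CC and 80.4% ± 4.02 in FF to 28.4% ± 16 in HH (exact permutation test, n = 3, p = 0.0143, adjusted p = 0.0286). The same reads enter several of these measures.

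Reads that neither begin at nt 1 nor reach the last 4 bases are internal fragments. Their share was 28.8%, 20.1% and 9.74% in CC, 12.5%, 12.4% and 16.6% in FF and 6.64%, 25.6% and 9.95% in HH. The strains overlapped throughout (exact permutation test, p = 0.632, adjusted p = 0.632). The largest difference between strain means was 5.74 percentage points, and went from 1.099 without CC replicate 1 to 10.65 without CC replicate 3.

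**Figure D1:**
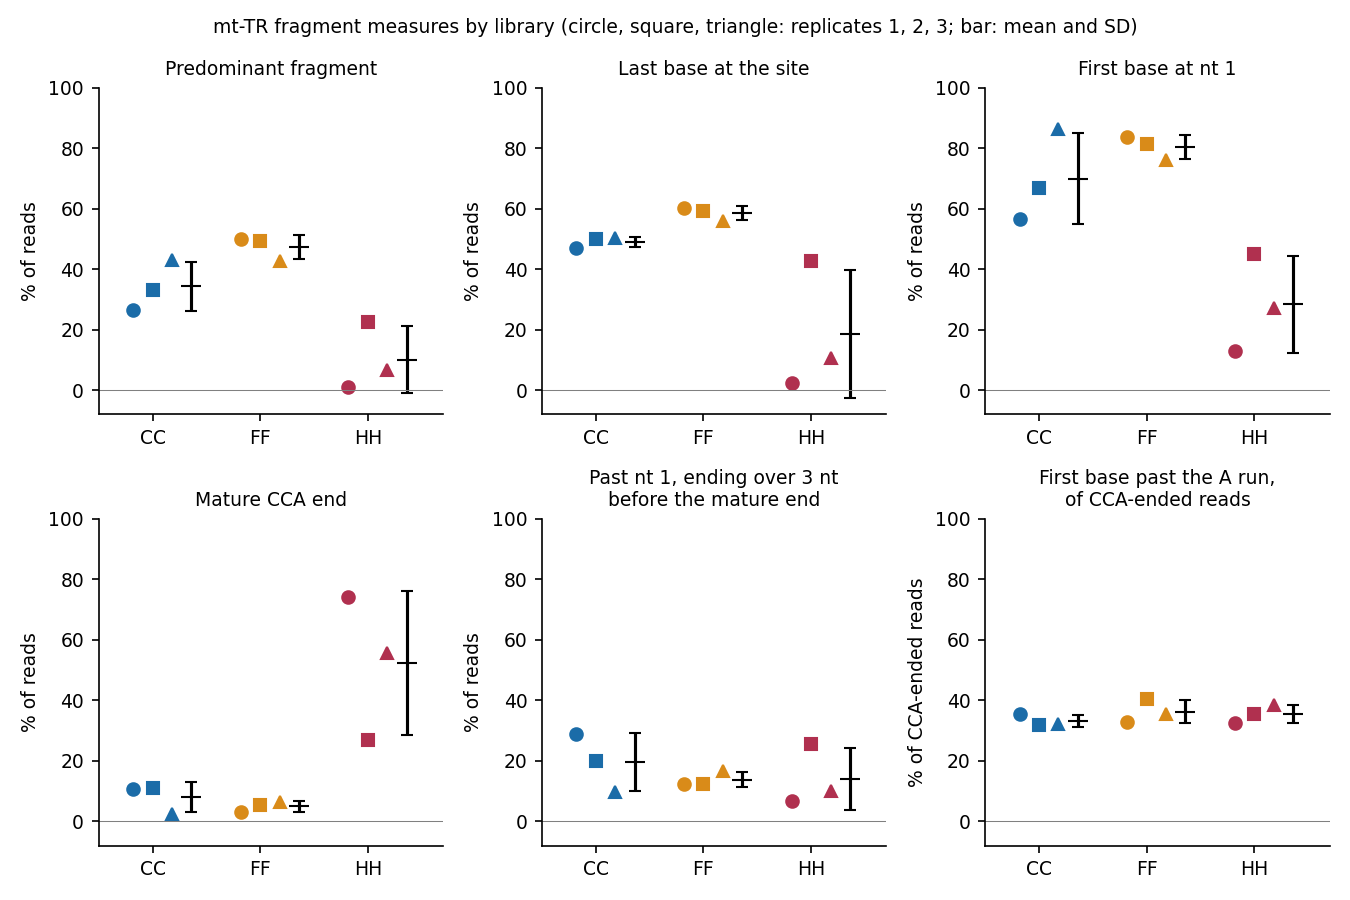
Shares of mt-TR reads in percent (vertical axes) for 6 measures in CC, FF and HH (horizontal axes). Points are libraries, with a circle, square and triangle for replicates 1, 2 and 3, and bars give the mean and SD of 3 libraries. HH lies lowest in the predominant fragment, ends at the site and starts at nt 1, and highest in CCA-ended reads, while the lower middle and lower right panels show overlapping strains.

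The profiles were then divided into 8 classes that cover every read once. The nt 1 fragments that end at the site or before it were 52.5%, 62.8% and 83.7% of reads in CC, 80.2%, 76.7% and 69.9% in FF, and 9.24%, 41.9% and 21.02% in HH. The nt 1 fragments that end past the site were a small class in every strain, at 2.52% to 4.19% in CC, 3.60% to 6.08% in FF and 3.12% to 6.09% in HH. Fragments that end at the site but begin past nt 1 were 20.3%, 16.7% and 7.15% of CC reads, 10.4%, 9.76% and 13.2% of FF reads and 1.42%, 20.2% and 3.91% of HH reads. In this class HH replicate 2 matched the higher CC libraries. CCA-ended fragments that begin within or before the A run were 1.57% to 7.55% in CC, 2.01% to 4.18% in FF and 17.5% to 50.2% in HH. In this class, reads that begin far enough inside the A run have the same letters in all strains. CCA-ended fragments that begin past the A run are all identical in sequence between strains. They were 0.748% to 3.74% in CC, 0.988% to 2.29% in FF and 9.55% to 24.1% in HH. Both CCA-ended classes were thus higher in every HH library than in any CC or FF library.

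**Figure D2:**
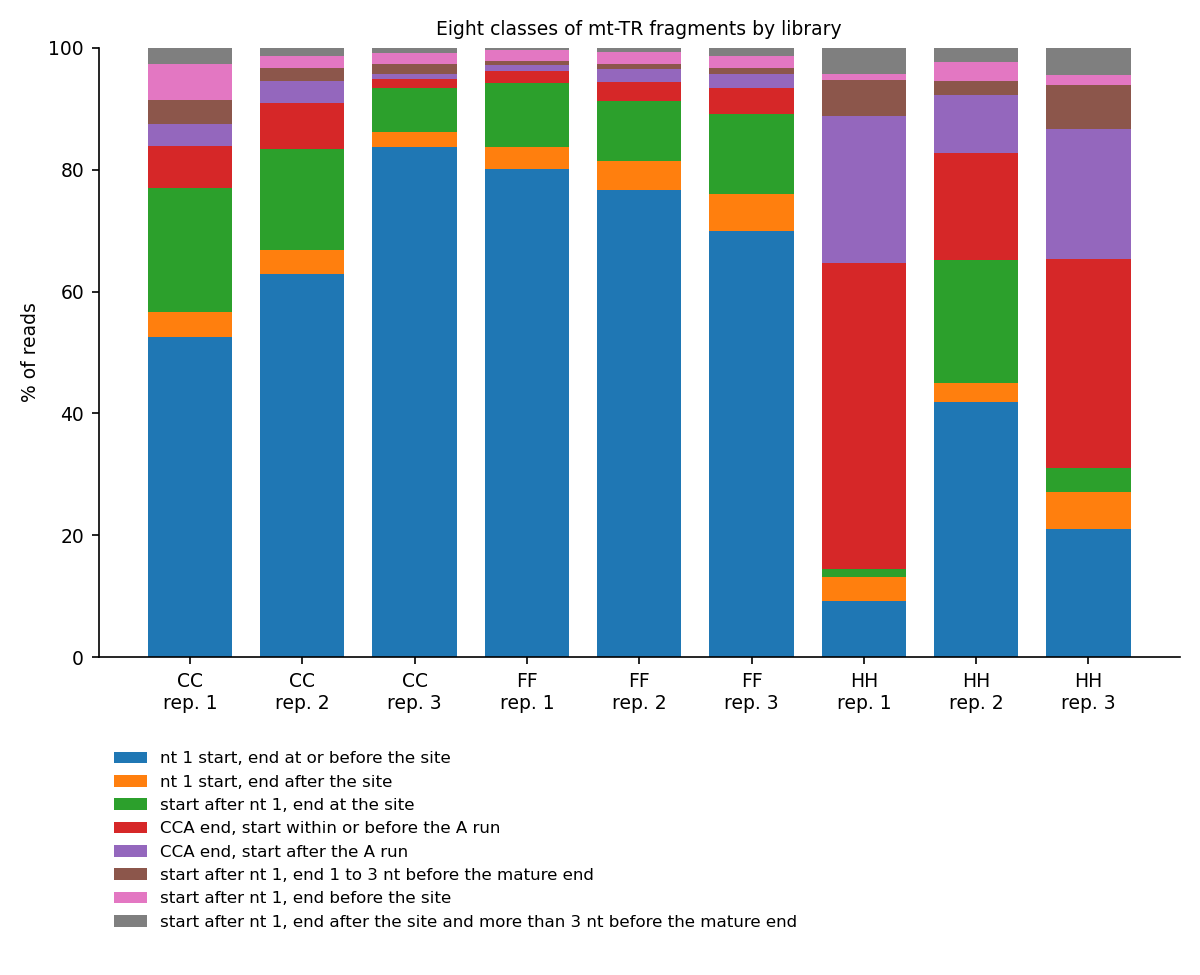
Stacked bars give the percent of reads (vertical axis) in 8 classes of mt-TR fragments, named in the legend, for each of the 9 libraries (horizontal axis). The nt 1 class that ends at or before the site fills 52.5% or more of each CC and FF bar and at most 41.9% of each HH bar, where the 2 CCA-ended classes take its place.

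Ends were next placed on the molecule. Reads ended at the site in 46.9%, 49.9% and 50.1% of cases in CC, in 60.3%, 59.1% and 55.9% in FF, and in 2.46%, 42.7% and 10.6% in HH. Here the 3 strains were fully separate, with FF above CC and CC above HH. The means were 48.99% ± 1.78, 58.4% ± 2.29 and 18.6% ± 21.3 in CC, FF and HH (exact permutation test, n = 3, p = 0.00357, the smallest these arrangements can give, adjusted p = 0.0238). FF exceeded CC by 9.44 percentage points with 3 of 3 libraries above every CC library (exact permutation test, n = 3 against 3, p = 0.1, the smallest that 20 arrangements can give, adjusted p = 0.193). Of the 27 tests between pairs of strains, 14 had libraries that did not overlap, and none could pass a p of 0.05 in this design.

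Outside the site, ends gathered at a few bases. Ends in the variable region made up 19.7%, 21.96% and 28.2% of reads in CC, 21.7%, 18.95% and 17.5% in FF and 3.33%, 13.1% and 6.34% in HH. Ends in the 5′ strand of the T stem made up 7.20% to 11.4% in CC, 7.56% to 8.14% in FF and 3.19% to 6.63% in HH. Reads of 40 nt or more can end in the variable region only if they begin close to nt 1.

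**Figure D3:**
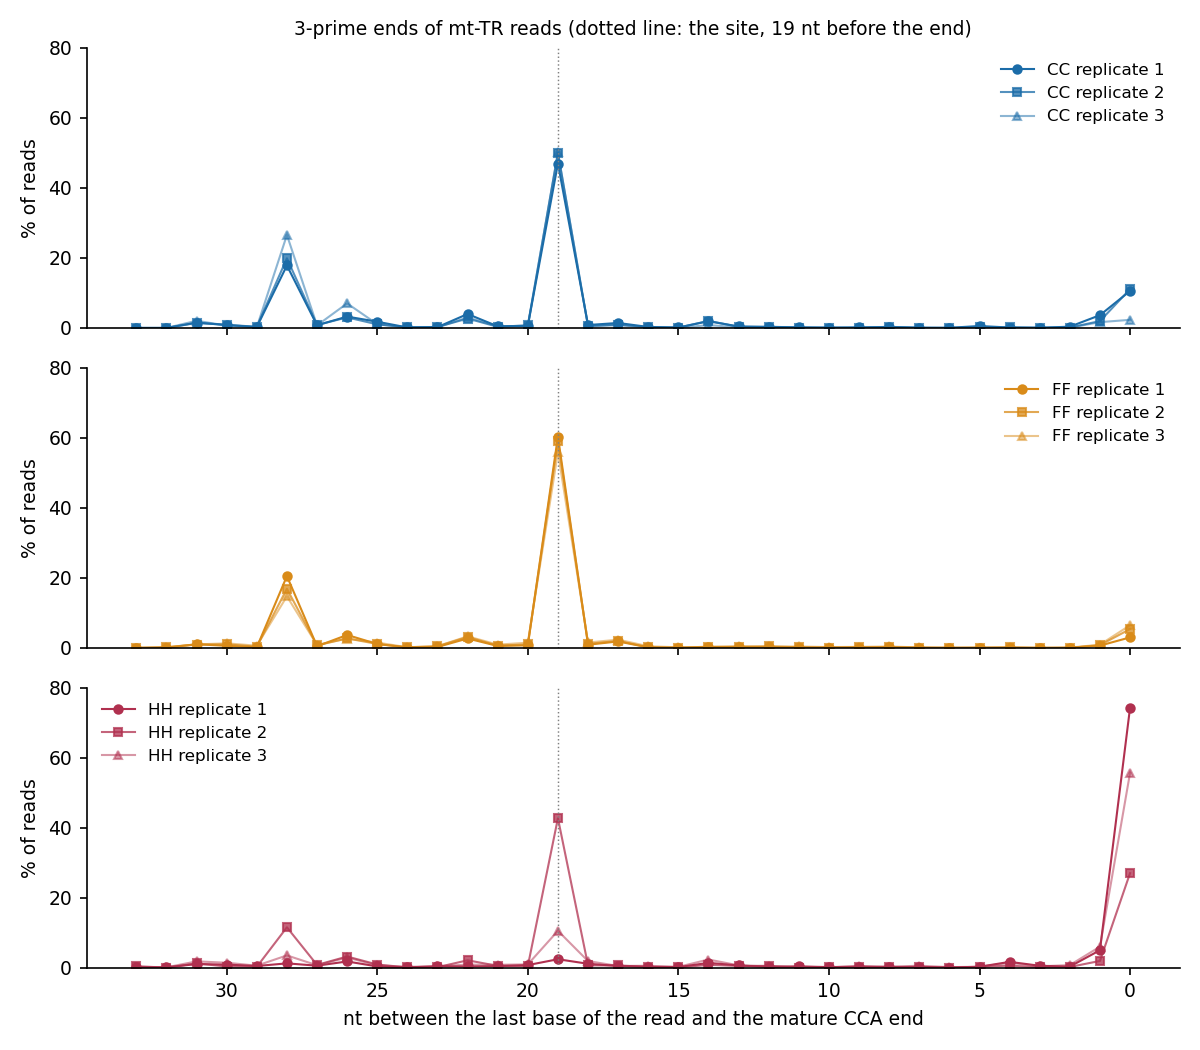
Percent of reads (vertical axis) by the nt left between the last base and the CCA end (horizontal axis), with 1 panel per strain and 1 line per library. CC and FF peak at 19 nt, the site marked by the dotted line, and at 28 nt, while HH replicates 1 and 3 peak at 0 nt (74.3% and 55.7%) and HH replicate 2 at both 19 nt (42.7%) and 0 nt (27.0%).

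The balance of 5′ and 3′ fragments does not enter the ends of nt 1 reads alone. Of these, 47.002%, 49.7% and 49.9% ended at the site in CC, 59.6%, 60.5% and 56.2% in FF, and 7.94%, 49.98% and 24.5% in HH. FF stood above all CC and HH libraries. HH replicate 2 lay at the level of CC (interval 48.2% to 51.8%), and HH replicates 1 and 3 lay far below, with 554 and 970 nt 1 reads. The strains differed at p = 0.0464 but did not pass after adjustment (exact permutation test, n = 3, adjusted p = 0.0663). Without HH replicate 2 they passed (exact permutation test, adjusted p = 0.0179), and without HH replicate 1 also (exact permutation test, adjusted p = 0.0286). Of the 9 settings with a single library left out, only these 2 passed. In the others the adjusted p was up to 0.117 (exact permutation test). The T loop as a whole held 51.5% to 52.97% of nt 1 read ends in CC and 63.7% to 65.95% in FF, and the variable region held 30.4% to 31.6% in CC and 22.3% to 25.1% in FF. In HH replicates 1 and 3 the ends of nt 1 reads were spread more evenly. The most frequent end of HH replicate 1 lay 26 nt before the mature end, at 12.996% of nt 1 reads, where CC libraries had 4.24% to 7.79% and FF libraries 3.17% to 4.24%.

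Among reads cut before the last 4 bases, the last base was A and the next T in 83.2%, 85.1% and 84.4% of CC reads, 88.2%, 85.8% and 82.3% of FF reads, and 28.3%, 82.9% and 45.6% of HH reads. Such A to T steps are 6 of the 28 positions that a read of this length class from nt 1 could end at in CC (21.4%), 6 of 29 in FF (20.7%) and 7 of 30 in HH (23.3%). HH replicate 2 was again within or near the range of CC and FF. The strains did not pass (exact permutation test, n = 3, p = 0.0571, adjusted p = 0.0714), but did without HH replicate 2 (exact permutation test, adjusted p = 0.0306), where the means differed by 48.5 percentage points at most. Of the 9 settings with a single library left out, only this 1 passed. In the others the adjusted p was up to 0.129 (exact permutation test).

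Single 5′ fragments followed the same pattern, to different degrees. The fragment from nt 1 to 28 nt before the end was 15.4%, 18.96% and 25.7% of reads in CC, 19.8%, 16.2% and 14.2% in FF and 1.28%, 10.7% and 3.33% in HH, with all HH libraries lowest. The fragment that stops at 22 nt, at the last base of the 5′ strand of the T stem, was 2.29%, 2.20% and 2.71% in CC, 2.20%, 2.49% and 2.58% in FF and 0.260%, 0.804% and 0.503% in HH. It was steady within CC and FF and fell in HH, with a log2 fold change of -2.18 ± 0.61 (SE) against CC (edgeR quasi-likelihood test, adjusted p = 0.00666) and -2.20 ± 0.61 against FF (edgeR, adjusted p = 0.00505). The fragment that stops at 26 nt, at the first base of the T stem, was 2.72%, 2.83% and 6.72% in CC, 3.55%, 2.59% and 2.55% in FF and 1.70%, 2.99% and 2.71% in HH, where the strains overlapped. Its log2 fold change was -0.73 ± 0.62 in HH against CC (edgeR, adjusted p = 0.340) and passed in DESeq2, at -1.92 (adjusted p = 0.0165). Over all 84 fragments tested, the median for HH against CC was also lower in DESeq2, at -0.42 against 0.70 in edgeR. For the predominant fragment, edgeR gave -1.77 ± 0.96 in HH against CC (adjusted p = 0.139) and -2.23 ± 0.98 in HH against FF (adjusted p = 0.0584), neither of which passed. Both passed without HH replicate 2, at -3.16 (edgeR, adjusted p = 0.00117) and -3.62 (edgeR, adjusted p = 0.000384), and both passed in DESeq2 (-2.55, adjusted p = 0.0123, and -3.32, adjusted p = 0.00117).

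A fragment from nt 11, the first base of the T run, to the site ranked 3 by mean in each strain. It was 11.4%, 10.6% and 3.13% of reads in CC, 5.39%, 4.78% and 7.57% in FF and 0.543%, 9.55% and 1.93% in HH, with all 3 strains overlapping. Among reads that end at the site, those that begin at nt 12, the next T, were 15.4%, 14.4% and 7.14% in HH and 3.32% or less in each CC and FF library. Because of the extra T, a read from nt 12 of HH has the same letters up to the A run as a read from nt 11 of CC or FF.

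The CCA-ended reads were then compared among themselves, since their share differed so much. Reads that begin past the A run were 35.4%, 31.9% and 32.3% of CCA-ended reads in CC, 32.9%, 40.6% and 35.4% in FF and 32.4%, 35.3% and 38.4% in HH. The strains overlapped, and their means lay within 3.12 percentage points of each other (exact permutation test, n = 3, p = 0.432, adjusted p = 0.480). This largest difference was 0.982 points without FF replicate 2 and 4.80 without FF replicate 1. The anticodon loop held the first base of 19.7% to 22.5% of CCA-ended reads in CC, 20.7% to 28.8% in FF and 20.5% to 23.2% in HH. The A run held that of 23.6% to 31.9%, 20.3% to 34.6% and 32.6% to 37.5%. A difference was seen at the 5′ edge of the molecule. Starts in the acceptor stem were 8.21%, 15.6% and 10.3% of CCA-ended reads in CC, 8.53%, 8.09% and 9.91% in FF and 3.08%, 3.31% and 3.01% in HH. With reads of at most 69 nt, a CCA-ended read can begin no earlier than nt 3 in CC, nt 4 in FF and nt 5 in HH, so this length limit moves with the strain.

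By mean share, the most abundant CCA-ended fragment of HH began at the first base of the anticodon loop. It is shown with the anticodon in capitals, and has the same sequence in all strains, at positions 9836 to 9875 with the CCA added.
HH CCA-ended from the anticodon loop: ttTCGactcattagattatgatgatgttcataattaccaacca
It was 5.72%, 1.97% and 3.75% of reads in HH, 0.574%, 0.665% and 0.105% in CC and 0.228%, 0.300% and 0.351% in FF, with a log2 fold change of 3.09 ± 0.71 in HH against CC (edgeR, adjusted p = 0.00364). In HH replicate 1 it was the most abundant fragment of all, where the predominant fragment of the other libraries ranked 30. The fragment that begins 1 base later was 3.95%, 1.46% and 4.19% of reads in HH and at most 0.633% in each CC and FF library. The HH fragment from the first A of the run, nt 15, to the CCA was 3.90%, 3.29% and 2.57% of reads, and that from nt 14, the last T, was 4.75%, 1.14% and 3.10%.

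**Figure D4:**
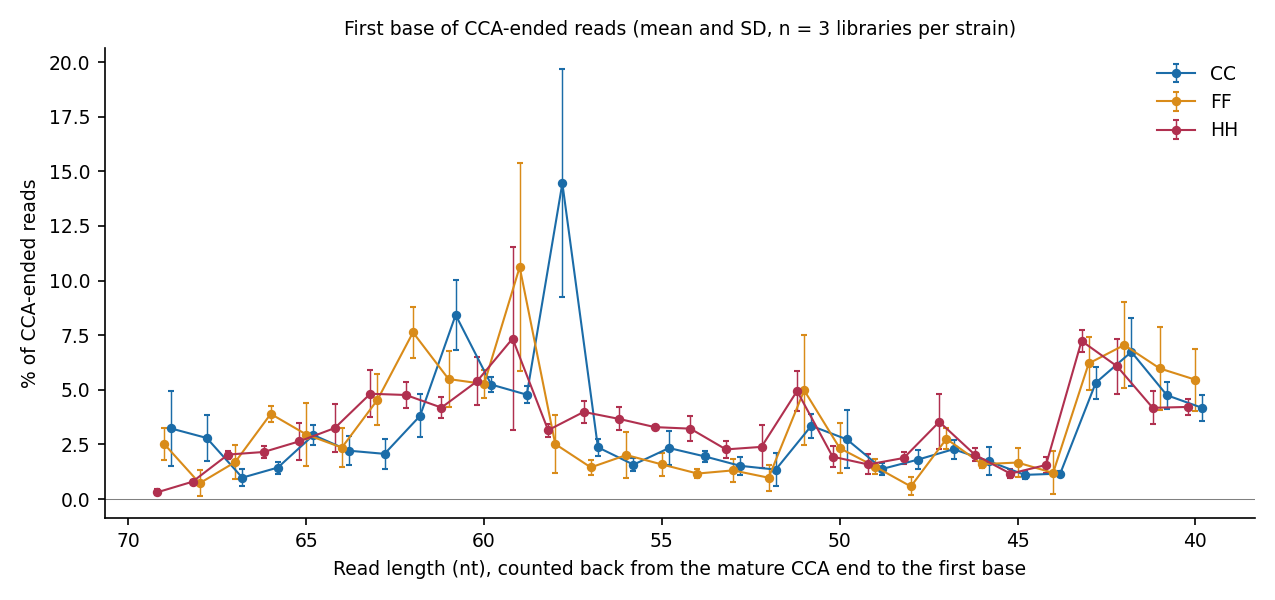
Percent of CCA-ended reads (vertical axis) by read length in nt (horizontal axis), which gives the first base as counted back from the CCA end. Points and bars are the mean and SD of 3 libraries in CC, FF and HH. At the first A of the A run, 58 nt in CC and 59 nt in FF and HH, the mean is highest in CC and FF, while in HH it rests on replicate 2 (12.2%), since replicates 1 and 3 have less at 59 nt (5.25% and 4.62%) than at 60 nt (6.39% and 5.57%).

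Some reads stopped 1 base short of the mature end, with a tail of CC in place of CCA. Among reads that begin past nt 1 and end within 3 nt of the mature end, these were 25.2%, 14.9% and 41.1% in CC, 17.6%, 12.7% and 12.2% in FF and 6.27%, 6.70% and 9.59% in HH. Every HH library lay below every CC and FF library. This share was looked at after the data were seen and was not tested.

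HH libraries held more of the longest reads and more varied fragments. Reads of 60 nt or more were 29.3%, 9.31% and 19.6% of reads in HH and at most 5.49% in CC and FF. The median length was 54, 50 and 52 nt in HH, 53 nt in each FF library and 46, 49 and 50 nt in CC, so HH reads were not longer throughout. An HH read that spans the runs also holds 1 more T and 1 more A than its CC counterpart. In 3000 reads drawn from each library, the expected number of distinct sequences was 174, 140 and 112 in CC, 105, 124 and 142 in FF and 205, 182 and 238 in HH. Every HH library lay above every CC and FF library (exact permutation test, n = 3, p = 0.0214, adjusted p = 0.0357).

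Taking all fragments at once, the Bray-Curtis distance (0 for identical shares, 1 for no fragment in common) was computed between libraries. Fragments were paired by aligned start, with inserted bases gapped at the left of each run. Some reads thus had no counterpart in another strain, such as those from nt 11 of HH (5.48%, 12.5% and 4.72% of reads). The distance averaged 0.110 within FF, 0.233 within CC and 0.422 within HH. Libraries of CC and FF differed by 0.224 on average, no more than CC libraries among themselves. Libraries of HH differed from CC by 0.610 and from FF by 0.641. Distances between strains exceeded those within strains by 0.237 (exact permutation test, p = 0.00714, adjusted p = 0.0238). HH replicate 2 lay nearer to CC (0.340 to 0.458) and FF (0.381 to 0.432) than to HH replicate 1 (0.571), and at 0.450 from HH replicate 3.

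With 3 libraries per strain, single libraries decided whether the tests over the 3 strains passed. The 6 measures that passed were the predominant fragment, nt 1 starts, ends at the site, CCA ends, distinct sequences and profile distance. All 6 lost the call without CC replicate 1 (exact permutation test, adjusted p from 0.0774 to 0.0918), CC replicate 2 (0.0857 to 0.107), FF replicate 1 (0.0952), FF replicate 2 (0.0893) or FF replicate 3 (0.0714). Without CC replicate 3, ends at the site and CCA ends lost it (0.0655). Without HH replicate 1, nt 1 starts (0.0595) and distinct sequences (0.0714) did. Distinct sequences also lost it without HH replicate 2 (0.0670) or 3 (0.0804). The order of HH against the others did not change, since every HH library lay on the same side of every CC and FF library in all 5 of these measures per library.

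Fragments were tested one by one to see which of them carried the difference. Reads were assigned to fragments shared by the strains, set by their aligned start and by how far before the CCA end they stop, and 84 fragments passed a filter on low counts. Between HH and CC, edgeR called 39 of 84 fragments (46.4%) at an adjusted p under 0.05, 29 higher (34.5%) and 10 lower (11.9%) in HH. Of the 28 CCA-ended fragments, 25 were called higher and none lower, with a median log2 fold change of 2.78 against 0.70 over all 84. Of the 13 that stop at the site, 4 were called lower and none higher, with a median of -1.77. Between HH and FF, 47 of 84 were called (56.0%), 40 higher (47.6%) and 7 lower (8.33%). All 28 CCA-ended fragments were called higher here, with a median of 3.53 against 1.54 over all 84, and 3 of the 13 that end at the site were called lower. These comparisons share the HH libraries. Libraries of the strains did not overlap in 48 of 84 fragments (57.1%) in either comparison. Between HH and CC, 61 of 101 fragments were called without HH replicate 2, and 26 and 28 of 92 without HH replicates 1 and 3. Of the 84 fragments, 14 passed the filter only through the HH libraries, where they had to be high. Without these, 22 of 24 CCA-ended fragments were called higher in HH against CC, beside 23 of 70 over all fragments left. Against FF, 24 of 24 were called higher, beside 29 of 70 over all fragments left.

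Shares sum to a whole, so the split depends on the scaling. TMM scaling called 24 higher and 17 lower in HH against CC, and 26 higher and 21 lower against FF. DESeq2 called 23 higher and 27 lower, and 25 higher and 28 lower. Over the 84 fragments the median log2 fold change was -0.33 with TMM and -0.42 with DESeq2 in HH against CC, and 0.02 and -0.01 against FF. Relative to that median, CCA-ended fragments in HH against CC lay higher by 2.08 with the table total, 2.13 with TMM and 2.17 with DESeq2. TMM and DESeq2 each called 22 of these 28 higher and none lower. Fragments that end at the site lay lower, at -2.47, -2.004 and -2.07, and the number called lower rose from 4 to 8 with TMM and 11 with DESeq2. A change of scaling shifts fragments nearly alike, so these are not separate observations.

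Most of the named increases in HH were of CCA-ended fragments that begin in the A run. The fragment from position 9823 to the CCA, 56 nt in both strains, had 30, 31 and 7 reads in CC and 134, 62 and 65 in HH, or 0.134% ± 0.0913 and 1.97% ± 1.12 of reads (SD, n = 3), with a log2 fold change of 3.88 ± 0.81 (edgeR, adjusted p = 0.00317). Those from 9825 and 9822 had 3.57 ± 0.72 and 3.44 ± 0.73. Against FF these were 4.99 ± 0.79 and 4.99 ± 0.81 on the log2 scale, followed by CCA-ended fragments from 9831, in the anticodon stem (4.90 ± 0.88), and 9827 (4.71 ± 0.96). Those from 9825, 9822 and 9831 passed the filter only through the HH libraries, so their direction was set by it. The lower fragment with the largest change against CC ran from nt 7 to 22 nt before the end. It had 139, 44 and 29 reads in CC and 0, 3 and 0 in HH, with a log2 fold change of -4.38 ± 1.05 (edgeR, adjusted p = 0.00419). A fragment from 9822 that stops 4 nt before the mature end had 5, 6 and 4 reads in HH, 2, 2 and 0 in CC and none in 33671 FF reads. It also passed only through HH and is given as a description.

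FF and CC differed in few fragments. With edgeR, 4 of 84 were called (4.76%), all lower in FF and 0 higher, and 12 had an unadjusted p under 0.05. Libraries did not overlap in 19 of 84 fragments (22.6%). DESeq2 called 4 lower and 1 higher. The count was 1 of 87 without CC replicate 1, 1 of 90 without FF replicate 1, 2 of 91 without FF replicate 2 and 8 of 89 without CC replicate 3. Of the 28 CCA-ended fragments 1 was called, with a median log2 fold change of -0.61 against -0.42 over all 84. The 13 that end at the site had a median of -0.34, which was 0.10 with TMM scaling and 0.11 with DESeq2.

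The called fragment from nt 1 ends 14 nt before the mature end, in the 3′ strand of the T stem. It had 179, 269 and 128 reads in CC, 23, 37 and 16 in FF and 41, 39 and 58 in HH, or 1.17%, 1.54% and 0.538% of reads, 0.159%, 0.293% and 0.244%, and 0.969%, 0.591% and 1.62%. FF lay below every CC and HH library, and CC and HH overlapped. Its log2 fold change was -2.22 ± 0.64 in FF against CC (edgeR, adjusted p = 0.0488) and 2.18 ± 0.65 in HH against FF (edgeR, adjusted p = 0.00733). The call against CC was lost without CC replicate 1 (edgeR, adjusted p = 0.186), CC replicate 2 (0.254), FF replicate 1 (0.379), FF replicate 2 (0.162) or FF replicate 3 (0.171). It was also lost without the filter on low counts (edgeR, adjusted p = 0.0911) or with all 18 libraries in the fit (0.119). The same held with inserted bases gapped at the right of the runs (0.0691).

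The other 3 fragments called between FF and CC all begin at the first A of the run in CC, nt 14, and end 14, 1 and 0 nt before the mature end. How the extra A of FF is aligned decides what they are compared with. With the gap at the left of the run, they are paired with reads from nt 15 of FF, the second A, and those that end 14 and 1 nt before the mature end passed the filter only through the CC libraries. Paired instead with reads from the first A of FF, the one that stops at 14 nt was still lower, with 63, 17 and 35 reads in CC and 4, 1 and 0 in FF (log2 fold change -3.86 ± 0.90, edgeR, adjusted p = 0.0374). The fragment with the CC tail had 182, 83 and 158 reads in CC and 27, 7 and 12 in FF (-2.46 ± 0.67, edgeR, adjusted p = 0.0691), and that with the CCA had 242, 174 and 107 and 70, 54 and 33 (-1.09 ± 0.59, edgeR, adjusted p = 0.351). Only the first of the 3 passed in that alignment, where 1 of 85 fragments was called in all.

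One 5′ fragment was more abundant in FF. It ends 17 nt before the mature end, in the T loop, and was 1.70%, 1.78% and 2.05% of reads in FF, 1.11%, 0.734% and 0.714% in CC and 0.354%, 0.561% and 0.363% in HH. The 3 strains did not overlap. FF against CC did not pass (log2 fold change 1.11 ± 0.55, edgeR, adjusted p = 0.286), and HH fell against FF (-2.10 ± 0.58, edgeR, adjusted p = 0.00505). It was singled out after its values were seen.

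**Figure D5:**
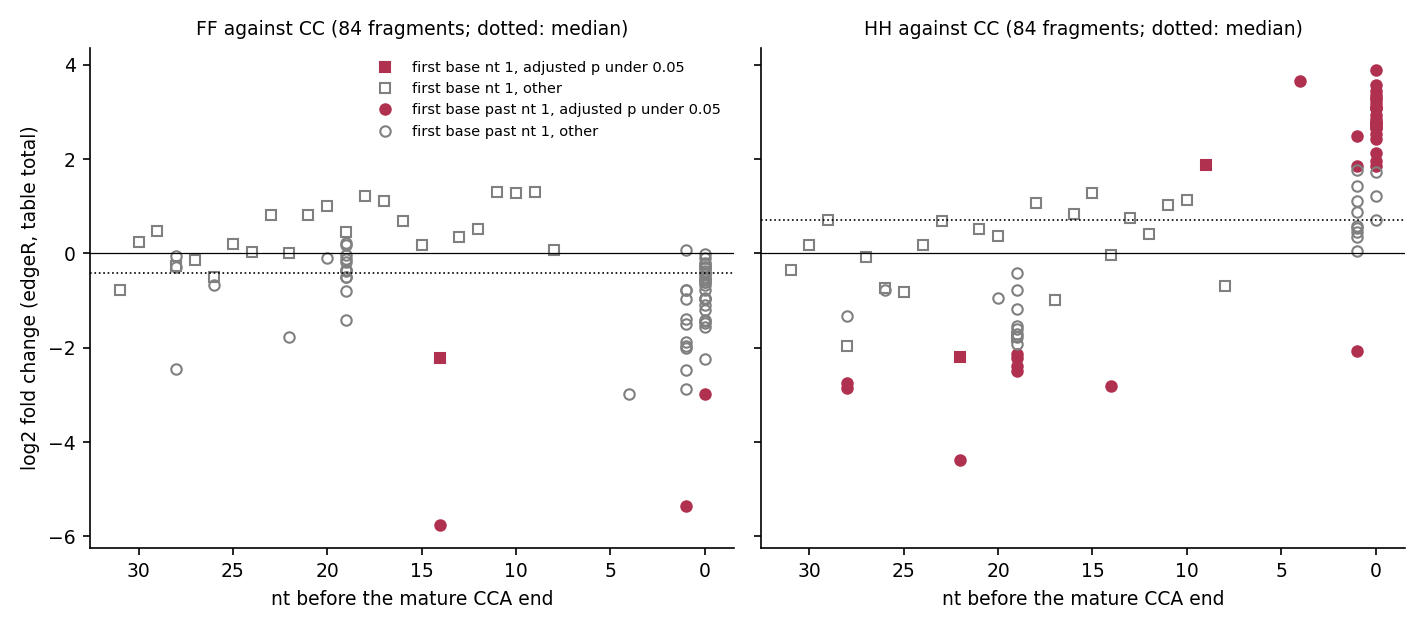
Log2 fold change (vertical axis) of the 84 fragments tested, by the nt left between the last base and the CCA end (horizontal axis), for FF against CC (left) and HH against CC (right). Squares begin at nt 1 and circles past it, filled symbols have an edgeR adjusted p under 0.05, and the dotted line is the median. At right the CCA-ended fragments at 0 nt lie above the median of 0.70, with 25 of 28 filled, and those at 19 nt lie below it, while at left 4 symbols are filled.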

How the data were processed

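Per the study's methods, the authors extracted unique molecular identifiers (UMIs), filtered reads by length, mapped reads with no gap or mismatch allowed to the mt-TR of the library's own strain, removed duplicates by UMI and dropped sequences that mapped elsewhere in mm10. The submitters' processing notes list FastQC 0.12.1, UMI-tools 1.1.6, cutadapt 5.0, BWA 0.7.18 and Bowtie 1.3.1. The deposited table gives raw read counts for distinct mt-TR sequences of 40 to 69 nt in every library. The study's methods state a wider range of read lengths, and the sources used here do not explain the narrower one. Of 18 columns, 0 had no matching sample, and 679 rows were read. Rows were written without the bases inserted in FF and HH, so reads were placed back on each strain's own sequence, and 0 pairs of library and row failed to match it. The CC sequence came from GENCODE M21 with CCA added, and those of FF and HH from the study's supplementary sequences. Stems and loops were set by base complementarity.

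Of 492 fragments shared in position by the strains, with inserted bases gapped at the left edge of each run, 427 could be listed in all 3 strains given the read lengths (97.3% of reads). The filterByExpr filter left 84, tested with the edgeR 4.0.16 quasi-likelihood test (R 4.3.3, limma 3.58.1), where library size was the table total, and Benjamini-Hochberg adjustment. DESeq2 1.42.0 was an alternative. Standard errors are the fold change over the square root of F. The 10 measures per library were compared by two-sided exact permutation of the libraries over strains, adjusted over the 10 (Python 3.11.15, numpy 2.4.6, pandas 2.3.3, scipy 1.17.1, matplotlib 3.10.9). Replicate libraries all differed in a chi-square test over fragments, and none were merged. In simulated counts for the 84 fragments in HH against CC, where 10 were shifted by 4 (log2), edgeR found 100% of these and called 0.473% of the others. Fragments were drawn independently there, and fewer were shifted than were called in the data, so these rates need not hold for the calls above. The permutation p was at or under 0.05 in 5.5% of 1000 null simulations.

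The strains, measures, classes and named fragments were chosen with earlier results of these data known. Named were the predominant fragment, the nt 1 fragment that stops 28 nt short, the nt 11 fragment that ends at the site, the 5 fragments with the largest mean share in each strain, and per edgeR comparison the 5 called fragments with the largest fold changes whose libraries did not overlap between strains. Alternatives were TMM scaling, DESeq2, no filter, a replicate block, all 18 libraries in the fit, gaps at the right, rows as written, the logit scale, only fragments that could be listed in all strains, the predominant fragment taken out, and each library left out.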

Additional observations from a re-analysis of the deposited data

How the results depend on the processing

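None of the 10 measures reversed under any alternative. On the logit scale no call of a share changed. With the replicate number as a block (216 arrangements), no measure passed: the largest differences between strain means stayed 37.2 percentage points for the predominant fragment, 51.99 for nt 1 starts, 39.9 for ends at the site, 47.4 for CCA ends, 84.4 for distinct sequences and 0.237 for profile distance (exact permutation test, adjusted p from 0.0926 to 0.104). Deviations of same-numbered libraries had correlations of -0.387 to 0.124. With so few libraries, these cannot decide whether the numbers mark a shared batch. With the predominant fragment taken out, nt 1 starts (41.97), ends at the site (10.5), CCA ends (47.2), distinct sequences (62.1) and profile distance (0.232) no longer passed (exact permutation test, adjusted p from 0.0571 to 0.432). With only fragments that could be listed in all strains, A to T ends passed (35.5, exact permutation test, adjusted p = 0.0298) and distinct sequences did not (73.6, adjusted p = 0.0561). With single libraries left out, differences ranged from 32.7 to 43.5 for the predominant fragment, 44.3 to 60.3 for nt 1 starts, 31.8 to 51.9 for site ends, 36.4 to 60.05 for CCA ends, 21.5 to 42.5 for site ends of nt 1 reads, 21.2 to 48.5 for A to T ends, 1.099 to 10.65 for internal fragments, 0.982 to 4.80 for CCA-ended starts past the A run, 69.6 to 97.7 for distinct sequences and 0.192 to 0.338 for profile distance, and calls of edgeR, among 87 to 101 fragments tested, from 1 to 8 for FF against CC, 26 to 61 for HH against CC and 32 to 70 for HH against FF. For FF against CC, edgeR called 8 of 427 fragments without the filter, 2 of 84 with the replicate block, 2 of 67 with all libraries in the fit and 1 of 85 with gaps at the right, against 4 of 84. With no library left out, counts in the other comparisons stayed within 1.5 times. Without HH replicate 2, HH against CC had 61 calls against 39. Small log2 differences between FF and CC, none of them passing, turned for nt 1 fragments. The one that stops at 28 nt was at 0.13 with TMM and 0.084 with DESeq2. With single libraries left out, the one at 26 nt ranged from -0.72 to 0.0615 and the one at 22 nt from -0.043 to 0.11. Over all comparisons of named fragments and all alternatives, 13 calls were lost and 17 gained. Depth limited the starts of CCA-ended reads most, with an interval of 30.98% to 40.04% in FF replicate 3 (424 reads).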
